A study of Saccharomyces cerevisiae with 23 samples.

Results

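Budding yeast lacking NAM8 was set directly against a mud1 mutant in log phase, with 3 libraries of each genotype out of 23 in the series and no wild type in the test. Both genotypes were made in the BY background and grown in minimal medium with 2% glucose. RNA was extracted with hot acid phenol and read by multiplexed primer extension sequencing (MPE-seq), in which reverse transcription starts from primers next to chosen introns, so that most reads show whether that intron was still present. The genotype label of the second group is mud1D, while the design text calls it a mud1 mutant, and it is written mud1 here. The strain names given for the 3 nam8D libraries (JPY2863, JPY28H5 and JPY28H5) and for the 3 mud1 libraries (JPY28A8, JPY10H3 and JPY10H3) have none in common, so strain and genotype cannot be told apart. The labels give the same names to other genotypes as well (JPY2863 and JPY28H5 to wild-type log-phase libraries labelled WTb, JPY10H3 to those labelled WTa), so the names are uncertain. Nothing in the labels states whether replicates came from separate cultures, so p-values here measure only the spread between libraries, which may be technical.

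Mud1 and Nam8 are both proteins of the U1 small nuclear ribonucleoprotein (U1 snRNP), the particle that pairs with the 5' splice site at the start of spliceosome assembly. Mud1 is the yeast counterpart of the human U1 protein A, which binds the U1 RNA. Nam8, related to human TIA-1, contacts the pre-mRNA just downstream of the 5' splice site, is known to favour U-rich sequence there, and is needed in meiosis for introns that also require the splicing activator Mer1. A comparison of the mutants with each other asks which introns differ in splicing when one U1 protein is missing rather than the other.

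The 6 libraries held 7033408, 6693650 and 7144846 counts in nam8D and 6995077, 7635253 and 7188122 in mud1. Of 282 introns listed in any of them, 274 were listed in all 6 with a mean of at least 20 counts and were tested, 104 of them in ribosomal protein genes and 170 in others. The MUD1 gene itself has an intron. It gave 1358, 1447 and 1472 mature counts in the nam8D libraries, against 1 mature count in mud1 replicate 1 and no listing in the other mud1 libraries. The tables list an intron only where it had at least 1 mature count. NAM8 is not among the primed introns, so the nam8D label could not be checked in this way.

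The sequences below are the first 30 bases of introns that rose most (4) and fell most (5) in nam8D relative to mud1, among those for which an annotated intron could be matched, because this stretch holds the 5' splice site and the bases next to it. They were read 5' to 3' on the sense strand from the RefSeq R64 genome. Capitals mark the 5' splice site, the first 6 bases, and the 4 introns higher in nam8D come first.
MRK1: GTATGTataattattttttatttttttttt
CQD1: GTTCGTattttacgcatggattaacggttt
DBP2: GTATGTtaaaattttctccatttttttatt
SAR1: GTATGTtatcaccctgttcacgtttttcgg
SCS22: GTATGTttgacgagaattgctagtgtgcgg
PCC1: GTAAGTagaagcagtttttcaatgggaaga
SPT14: GTATGTctagctcacagcatgtgttccaaa
SNC1: GTAAGTacagaaagccacagagtaccatct
UBC8: GTATGTttgataagatatatacgtatattt
The introns lie on R64 at chrIV:314045-314336 (MRK1, minus strand), chrXVI:345445-345596 (CQD1, minus strand), chrXIV:414912-415913 (DBP2, plus strand) and chrXVI:138726-138864 (SAR1, plus strand). The introns lower in nam8D lie at chrII:47059-47146 (SCS22, minus strand), chrXI:625902-625976 (PCC1, plus strand), chrXVI:218647-218746 (SPT14, plus strand), chrI:87388-87500 (SNC1, plus strand) and chrV:131777-131899 (UBC8, plus strand). MRK1 had 79.2% T in bases 7 to 30, DBP2 62.5%, and CQD1 and SAR1 41.7% each. SCS22 had 29.2%, PCC1 and SPT14 25.0% each, and SNC1 12.5%, while UBC8 had 45.8%, above CQD1 and SAR1.

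The mutants differed at many introns, and in opposite directions. The premature share, the percentage of an intron's counts that still held the intron, was the value shown, and the value tested was log2 of premature over mature counts, nam8D minus mud1 (two-sided quasi-likelihood test in edgeR, with adjusted p under 0.05 by Benjamini-Hochberg). On this measure 28 introns were higher in nam8D (10.2% of those tested) and 69 were lower (25.2%), so 35.4% differed in one direction or the other. An unadjusted p under 0.05 was reached by 121. The premature shares of the 3 nam8D libraries all lay above those of the 3 mud1 libraries at 46 introns (16.8%) and all below at 81 (29.6%). Without nam8D replicate 3 the count higher in nam8D was 18, and over the 6 fits with 1 library left out the counts ran from 18 to 41 higher and from 48 to 72 lower. Of the 28 introns 15 passed in all 6 of these fits, and of the 69 introns 44 did.

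The split into higher and lower depends on what counts as no difference. Log2 odds of an intron within a library need no scaling to the library total, but they keep any shift common to all its introns. Without centring, the median difference over the 274 introns was -0.06. When each library was instead centred on its median intron (limma), the median difference became 0.30 and the counts became 114 higher and 29 lower, so the share of calls that were lower was 20.3% in place of 71.1%. The median intron lies between the low shares of ribosomal protein introns and the higher shares of the others. Centring on the median deviation from each intron's own mean, an alternative chosen after seeing the data, gave 39 higher and 62 lower with a median of 0.03.

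**Figure D1:**
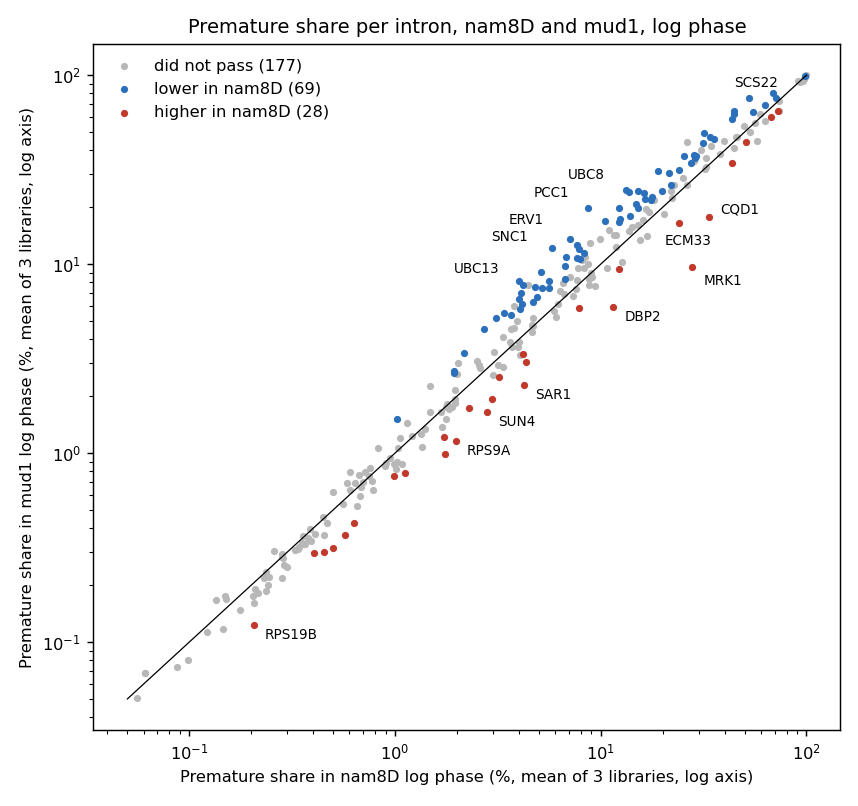
Mean premature share of each tested intron in nam8D (x axis, %, log scale) against mud1 (y axis, %, log scale), 3 libraries each, with equality as a line. The 69 introns lower in nam8D lie above the line, mostly at high shares, and the 28 higher ones lie below it over the whole range, from RPS19B at 0.206% to GCR1 at 72.8% in nam8D.

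Without centring, the calls in ribosomal protein introns were all increases, and those in other introns were mostly decreases. Among 104 ribosomal protein introns 13 were higher in nam8D and none was lower (edgeR; 2 at an unadjusted p under 0.05, and 0 by DESeq2), with a median log2 difference of 0.11. The share higher, 12.5%, was near the 10.2% over all tested introns, of which 25.2% were lower. Of these 13, RPL23A, RPL31A, RPL31B, RPL35A, RPS11B and RPS19A each lost the call in some fits with 1 library left out. RPL31B lost it with DESeq2 as well. Among 170 other introns 15 were higher (8.82%) and 69 lower (40.6%), with a median of -0.34. After centring on the median intron the ribosomal protein introns had 74 higher and 0 lower, and the others had 40 higher and 29 lower with a median of 0.03, so the sign of that median flipped. The median premature share over all tested introns was 4.58% ± 0.350 in nam8D and 5.81% ± 0.453 in mud1 (SD, n = 3 each). Every nam8D library was below every mud1 library, and the exact permutation p was 0.1, the smallest that 3 against 3 allows, with 0.2 after adjustment over 4 such measures. The share pooled over all tested introns, which weights each intron by its counts, was 2.18% ± 0.104 in nam8D and 2.22% ± 0.113 in mud1 (SD, n = 3 each; exact permutation p = 0.6). The median share over other introns alone was 11.6% ± 0.871 in nam8D and 13.9% ± 1.07 in mud1 (exact permutation p = 0.1). Over ribosomal protein introns the median share was 0.622% ± 0.0518 in nam8D and 0.641% ± 0.0947 in mud1 (exact permutation p = 0.9), and these libraries overlapped.

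MRK1, which encodes a protein kinase related to glycogen synthase kinase 3, had the largest increase of all introns that passed. Its premature share was 25.1, 27.3 and 31.3% in the nam8D libraries, against 10.2, 9.87 and 8.86% in the mud1 libraries. The groups did not overlap, and the ratio of premature to mature was 3.59-fold higher in nam8D (log2 difference 1.84, SE 0.18, edgeR adjusted p = 2.7e-07). The share in the 5 wild-type log-phase libraries of the series ran between 4.27 and 6.2%, below both mutants.

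CQD1, whose product takes part in the distribution of coenzyme Q, had shares of 33.5, 31.7 and 35.8% in nam8D, against 16.7, 15.3 and 21.3% in mud1. No nam8D library came near the highest mud1 library, and the log2 difference was 1.24 (SE 0.20, edgeR adjusted p = 8.6e-05). DBP2, a DEAD-box RNA helicase gene that regulates its own splicing, had 11.6, 10.5 and 12.5% in nam8D, against 5.89, 6.12 and 5.81% in mud1 (log2 difference 1.04, SE 0.13, edgeR adjusted p = 4.3e-06). The wild-type range of DBP2 was 6.99 to 8.49%, so nam8D lay above it and mud1 below it. SAR1, the small GTPase that starts COPII coat assembly, had 4.37, 3.77 and 4.60% in nam8D, against 2.32, 2.17 and 2.40% in mud1. Its groups were apart as well (log2 difference 0.91, SE 0.13, edgeR adjusted p = 2.1e-05).

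Other introns among those that rose most included a pair of cell wall protein genes. RPS9A, a small-subunit protein gene, had 1.86, 2.26 and 1.79% in nam8D, against 1.08, 1.10 and 1.30% in mud1 (log2 difference 0.76, SE 0.17, edgeR adjusted p = 0.0015). ECM33, a cell wall protein gene, had 23.9, 20.6 and 27.2% in nam8D, against 14.5, 15.7 and 19.2% in mud1 (log2 difference 0.67, SE 0.15, edgeR adjusted p = 0.0022). In both genes the lowest nam8D library was above the highest mud1 library. SUN4, another cell wall protein gene, and RPS19B rose by 0.77 and 0.74. RPL31A rose by 0.66, but it did not pass without mud1 replicate 2 (0.61), without nam8D replicate 1 (0.56) or without nam8D replicate 3 (0.57).

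On the other side, the largest fall was at SCS22, a gene for an ER membrane protein of the VAP family. Its premature share was 53.5, 51.5 and 52.2% in the nam8D libraries, against 72.8, 75.4 and 80.2% in the mud1 libraries. The nam8D values lay close together and well under the mud1 values (log2 difference -1.54, SE 0.14, edgeR adjusted p = 2.7e-07), which is a ratio of premature to mature 2.90-fold higher in mud1. PCC1, a subunit of the KEOPS complex that modifies tRNA, had 8.23, 8.14 and 9.54% in nam8D, against 16.9, 18.9 and 23.5% in mud1 (log2 difference -1.37, SE 0.16, edgeR adjusted p = 3.2e-06). The wild-type range of PCC1 was 5.68 to 7.40%, under both mutants, and that of SCS22 was 36.7 to 52.1%.

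SPT14 encodes the catalytic subunit of the first step of GPI anchor synthesis. Its share was 41.9, 45.6 and 46.1% in nam8D, against 60.9, 64.1 and 67.8% in mud1 (log2 difference -1.17, SE 0.15, edgeR adjusted p = 8.7e-06). SNC1, a vesicle SNARE of secretion, had 5.55, 5.59 and 6.26% in nam8D, against 11.9, 10.9 and 13.6% in mud1 (log2 difference -1.16, SE 0.14, edgeR adjusted p = 3.6e-06). All nam8D libraries were below all mud1 libraries at both genes, and the nam8D means lay inside the wild-type ranges of 41.8 to 57.8% and 4.55 to 7.84%.

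Both ubiquitin-conjugating enzyme genes among the top 10 fell by nearly the same amount. UBC8, which acts in the breakdown of a gluconeogenic enzyme, had 13.6, 12.3 and 13.9% in nam8D, against 23.4, 24 and 26.7% in mud1 (log2 difference -1.10, SE 0.13, edgeR adjusted p = 3.2e-06). UBC13, the partner of Mms2 in error-free DNA damage tolerance, had 4.11, 4.19 and 3.70% in nam8D, against 8.0, 7.76 and 8.82% in mud1 (log2 difference -1.09, SE 0.15, edgeR adjusted p = 1.4e-05). ERV1, a sulfhydryl oxidase of mitochondrial import, had 5.75, 7.73 and 7.77% in nam8D, against 13.1, 13.6 and 14.1% in mud1 (log2 difference -1.05, SE 0.15, edgeR adjusted p = 2.7e-05). None of these groups overlapped. The remaining introns of the 10 were YCL002C (-1.08), MAY24 (-1.06) and the vacuolar SNARE gene NYV1 (-0.98).

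**Figure D2:**
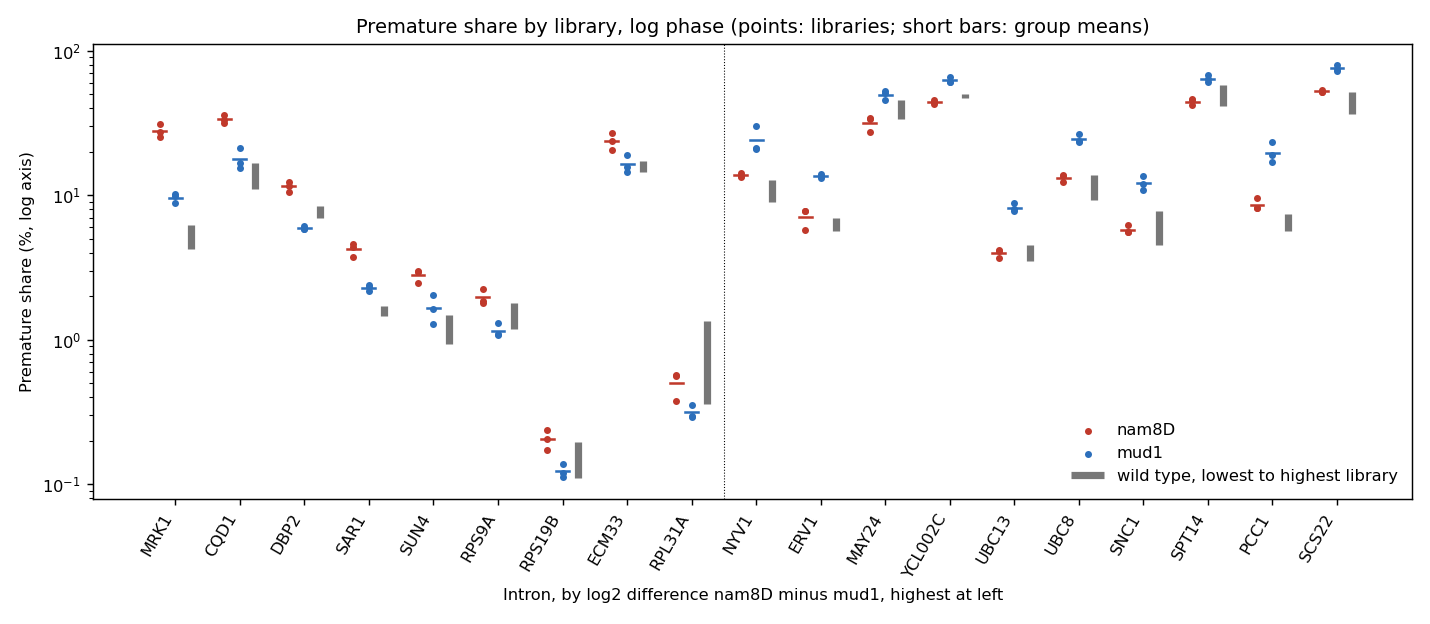
Premature share (%, log axis) of 9 introns among those that rose most (left of the dotted line) and the 10 that fell most, with nam8D libraries left of mud1 libraries as points, group means as short bars, and the wild-type log-phase libraries as a grey range (5 libraries, 3 for SAR1). At MRK1 the nam8D libraries sit between 25.1 and 31.3%, above mud1 at 8.86 to 10.2%, and at SCS22 they sit between 51.5 and 53.5%, below mud1 at 72.8 to 80.2%.

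Set beside the range of the wild-type log-phase libraries, as a description with no test, the differing introns fell into several patterns. Of the 69 introns lower in nam8D, 36 had a nam8D mean inside the wild-type range and a mud1 mean above it, and 22 had both means above it. In 6 the nam8D mean was below the range and the mud1 mean above it. Of the 28 introns higher in nam8D, 8 had both means above the range, 7 had nam8D above and mud1 inside it, and 7 had nam8D inside and mud1 below it. DBP2 and RPS9A made up the 2 with nam8D above and mud1 below. Over all 274 tested introns 57 (20.8%) had nam8D inside the range and mud1 above it, 69 (25.2%) had both above, 7 had nam8D below and mud1 above, 28 (10.2%) had nam8D above and mud1 inside, 20 (7.3%) had nam8D inside and mud1 below, and 3 had nam8D above and mud1 below. These classes follow in part from the direction of each call. The wild-type libraries come from sets labelled WTa and WTb, whose strain names recur in the mutants, and WTa did not list some introns, SAR1 among them.

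Of genes known for regulated or retained introns, some passed the test and others did not. GCR1, a transcription activator of glycolytic genes, was 72.1, 72.9 and 73.3% premature in nam8D, against 67.1, 63.9 and 62.6% in mud1 (log2 difference 0.56, SE 0.14, edgeR adjusted p = 0.0051), with no overlap. YRA1, an mRNA export adaptor whose intron is used in autoregulation, rose by 0.46 (SE 0.15, edgeR adjusted p = 0.018), but not past the threshold without nam8D replicate 3 (0.32). BMH2, a 14-3-3 protein gene, rose by 0.36 (edgeR adjusted p = 0.027), and 4 of 6 leave-one-out fits gave 0.35 to 0.36 and no call (without mud1 replicate 2 or any 1 nam8D library). ACT1 (actin, 0.29), RPS14B (0.19) and RPL30 (0.13), the last 2 being ribosomal protein genes that control their own splicing, did not pass. RPL22B (-0.05) and LSM7 (0.24), a gene of the U6-associated Lsm ring, did not pass either. HAC1, which is spliced in the cytoplasm by Ire1 and tRNA ligase, was at 99.9% ± 0.00353 in nam8D and 99.9% ± 0.0336 in mud1 (SD, n = 3 each; log2 difference 0.15, SE 0.41).

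Introns of the same transcript could differ in how they compared. SUS1, a subunit of the SAGA and TREX-2 complexes, has a pair of introns. The first was 50.4, 50.5 and 50.8% premature in nam8D, against 43.6, 44.0 and 45.5% in mud1, without overlap (log2 difference 0.36, SE 0.12, edgeR adjusted p = 0.024). The second had a log2 difference of -0.03 (SE 0.14) and its libraries overlapped. The call on the first was lost in each leave-one-out fit except the one without mud1 replicate 3, at 0.34 to 0.36. YOS1, a protein of ER to Golgi transport, had a first intron at 0.07 (SE 0.14), with overlap. Its second was 3.08, 3.03 and 3.16% premature in nam8D, against 5.0, 4.79 and 5.86% in mud1, all nam8D libraries being lower (log2 difference -0.78, SE 0.13, edgeR adjusted p = 0.00013). A test of the difference between the introns of a gene was not run. In TAD3, a tRNA adenosine deaminase subunit, both introns fell (-0.80 and -0.82). Over the 19 tested introns of genes with 2 listed introns, 2 were higher and 6 lower, with a median of 0.03. Over all 274 tested introns 10.2% were higher and 25.2% lower, so these counts are near those shares.

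Where a gene list below had no call in a direction, DESeq2 made 0 calls there too. Centring on the median intron (limma), however, gave 2 meiotic introns, REC107 and PCH2, and 3 cytoskeleton introns higher. The list counts are read against 10.2% higher and 25.2% lower over all 274 introns, and 8.82% higher and 40.6% lower over the 170 outside ribosomal protein genes, and no list is called particular from them. At an unadjusted p under 0.05 edgeR had 1 cytoskeleton intron higher and 2 large-subunit introns lower in nam8D, and 0 in the other such cases. Among functional groups, the lowest median of the lists was that of tRNA and transcription machinery, where 6 of 9 introns fell and 1 rose, at -0.74 against -0.06 over all 274 introns. PCC1 and IWR1, which carries RNA polymerase II into the nucleus (-0.81), had the smallest p-values there. In ubiquitin and proteasome genes 6 of 9 fell and none rose (median -0.55). Besides UBC8 and UBC13 these were UBC9, the SUMO-conjugating enzyme (-0.77), PRE3, a proteasome core subunit (-0.58), RUB1, the Nedd8 homologue (-0.55), and UBC5 (-0.53). RUB1 did not pass without nam8D replicate 3 (-0.41), and UBC5 did not pass without mud1 replicate 3 (-0.38), nam8D replicate 2 (-0.45) or nam8D replicate 3 (-0.49). After centring on the median intron, 4 of 9 introns of tRNA and transcription machinery fell and 1 rose (median -0.38), and 3 of 9 in ubiquitin and proteasome genes fell (median -0.19).

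In vesicle transport 9 of 23 introns fell and 1 rose, SAR1, with a median of -0.41, a share lower that is near the 40.6% among other introns. YOP1, an ER membrane-shaping protein, was at 3.99, 4.49 and 4.15% premature in nam8D, against 7.16, 7.10 and 8.94% in mud1, with no overlap (log2 difference -0.93, SE 0.14, edgeR adjusted p = 3.0e-05). In mitochondrial respiration, import and ribosome genes 6 of 11 fell and CQD1 rose (median -0.38). QCR9, a subunit of respiratory complex III, was at 16.4, 15.1 and 14.1% in nam8D, against 25.2, 22.2 and 26.2% in mud1, again apart (log2 difference -0.86, SE 0.13, edgeR adjusted p = 3.7e-05). CMC4, a protein of the mitochondrial intermembrane space, fell by 0.38 on the log2 scale (edgeR adjusted p = 0.036). It did not pass without mud1 replicate 3 (-0.27), nam8D replicate 1 (-0.32) or nam8D replicate 2 (-0.33). In cytoskeleton genes 5 of 11 fell and none rose (median -0.43), a share again near that among other introns, led by the profilin gene PFY1 (-0.68) and by ARP2 (-0.53), a subunit of the Arp2/3 complex. CIN2, a tubulin folding factor, had a difference of -1.22 on 29 to 55 counts a library and did not pass (edgeR adjusted p = 0.053). Centred on the median intron, vesicle transport had 5 higher and 5 lower (median -0.04), the mitochondrial list 3 and 3 (-0.02), and cytoskeleton 3 and 1 (-0.08).

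Other groups were mixed. In cell wall and ER membrane genes 4 of 9 fell, led by SCS22 and SPT14, and the 2 cell wall genes ECM33 and SUN4 rose (median -0.24). After centring on the median intron the counts were again 4 lower and 2 higher, with a median of 0.12. In splicing, mRNA export and decay genes 3 of 14 rose and 4 fell (median -0.01), and after that centring 6 were higher and 1 lower (median 0.35). Those with the smallest p-values were DBP2 and SMD2, a core Sm protein gene (-0.74). In signalling and cell cycle genes MRK1 and BMH2 rose and PTC7, a phosphatase gene (-0.56), and PHO85, a cyclin-dependent kinase gene (-0.48), fell (2 and 2 of 10). Their median was -0.19. After that centring 4 were higher and none lower (limma; median 0.18), and PTC7 (-0.19, limma adjusted p = 0.24) and PHO85 (-0.12, limma adjusted p = 0.39) did not pass. PHO85 did not pass without nam8D replicate 1 (-0.45) or nam8D replicate 2 (-0.42).

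Of 11 introns in snoRNA host genes, 5 were higher in nam8D and none lower, with a median of 0.33, where 10.2% of all tested introns were higher. The list was made by gene and holds both introns of RPL7A, RPL7B and RPS22B, whether or not each holds a snoRNA. The shares of 7 did not overlap with nam8D above, against 16.8% of all tested introns. After centring on the median intron 9 of the 11 were higher (median 0.69). NOG2, a GTPase of large-subunit export, was 41.7, 44.4 and 44.6% premature in nam8D, against 35.2, 33.1 and 34.3% in mud1, all nam8D libraries being higher (log2 difference 0.57, SE 0.13, edgeR adjusted p = 0.0016). RPS22B intron 2 rose by 0.43. The translation factor genes TEF4 (0.51) and EFB1 (0.34) and the ribosome-associated ASC1 (0.50) made up the rest. TEF4 did not pass without mud1 replicate 2 (0.47), and ASC1 did not pass without nam8D replicate 3 (0.31). EFB1 did not pass without mud1 replicate 1 (0.33), mud1 replicate 2 (0.30), nam8D replicate 1 (0.33) or nam8D replicate 3 (0.32). Of 9 introns in genes that regulate their own splicing, DBP2, RPS9A and YRA1 rose and none fell (median 0.13, with 10.2% of all introns higher). After that centring 8 of the 9 were higher (median 0.49).

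In large-subunit protein genes 5 of 59 introns rose and none fell (median 0.13), and in small-subunit genes 8 of 45 rose and none fell (median 0.05), where 10.2% of all introns tested rose. After centring on the median intron 45 of 59 and 29 of 45 were higher (medians 0.49 and 0.41), and again none was lower. RPL35A rose by 0.58 (0.45 without mud1 replicate 2 and 0.51 without nam8D replicate 3, neither past the threshold). RPS23A was 0.608, 0.552 and 0.559% premature in nam8D, against 0.342, 0.368 and 0.394% in mud1 (log2 difference 0.64, SE 0.14, edgeR adjusted p = 0.0015). Those groups did not overlap, at 91615 to 105367 counts a library. The sources used here do not tell how reads were divided between near-identical copies of ribosomal protein genes, and single members of such pairs are therefore uncertain.

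Meiotic introns, where Nam8 is best known to act, were read at low counts. Of 7 tested, none rose and REC114 (-0.76) and HOP2 intron 2 (-0.50), both genes of meiotic recombination, fell. REC114 did not pass without nam8D replicate 1 (-0.71). HOP2 intron 2 did not pass without mud1 replicate 1 (-0.47), mud1 replicate 3 (-0.40), nam8D replicate 1 (-0.48) or nam8D replicate 2 (-0.39). DESeq2 called neither (adjusted p = 0.054 for REC114 and 0.078 for HOP2 intron 2). Over all tested introns 25.2% were lower, and after centring on the median intron 2 of the 7 were higher and 1 lower, with a median of 0.55 against 0.17 without centring. The 2 tested introns of the list of Mer1 and Nam8 meiotic targets, REC107 and PCH2, were almost fully retained in both mutants. The list does not tell which of them needs both proteins. REC107 (also called MER2) was at 97.5, 96.4 and 97.9% premature in nam8D, against 93.4, 94.7 and 97.9% in mud1, which overlap (log2 difference 0.78, SE 0.42, edgeR adjusted p = 0.15). Without mud1 replicate 3 it was 1.17 and passed. PCH2 was at 98.4, 91.1 and 98.3% in nam8D, against 90.9, 94.3 and 95.7% in mud1, on 33 to 61 counts (0.79, SE 0.97, edgeR adjusted p = 0.57). After centring on the median intron both REC107 and PCH2 were called higher in nam8D (limma, 2 of 2, median 1.16).

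**Figure D3:**
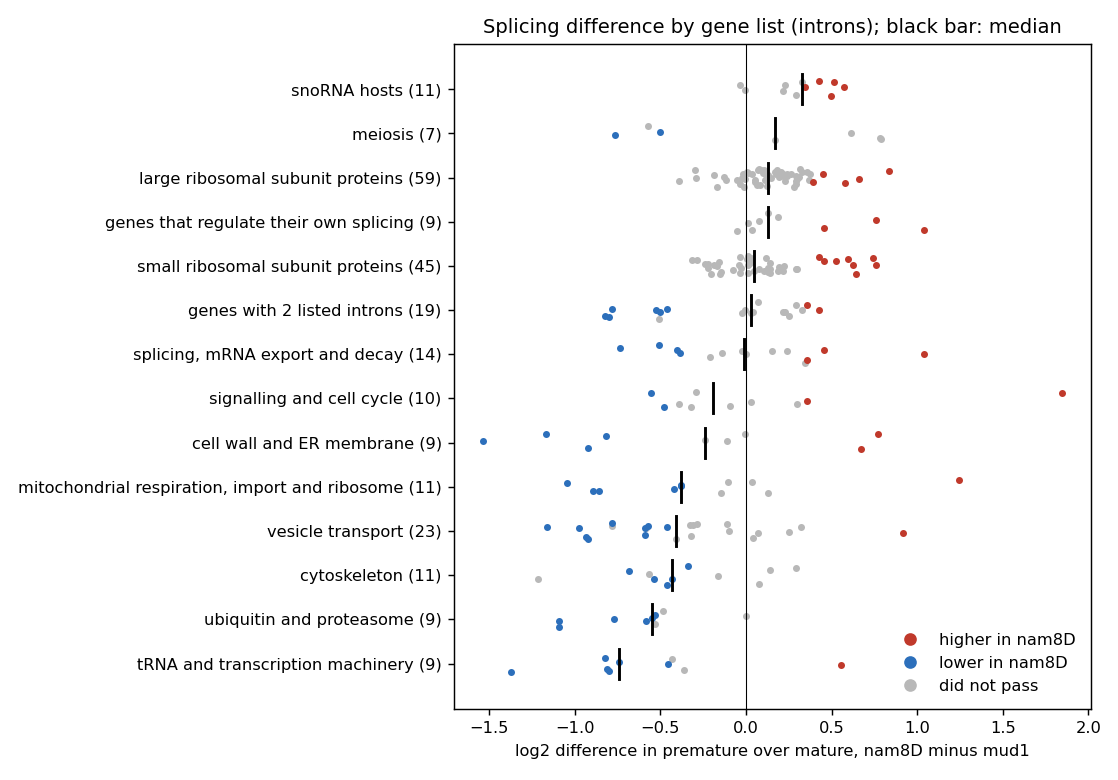
Log2 difference in premature over mature, nam8D minus mud1, for the tested introns of each gene list (x axis), with lists ordered by their median (black bar) and the number of introns in brackets. The medians run from -0.74 in tRNA and transcription machinery to 0.33 in snoRNA host genes. No ribosomal protein intron passed the test as lower in nam8D, though 13 of 59 large-subunit and 16 of 45 small-subunit introns had a negative difference.

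Outside ribosomal protein genes, the introns higher in nam8D differed in outline from those lower, by features that the comparison did not use. These splits were chosen after the values were seen and are given with no test. Ribosomal protein introns aside, 154 tested introns had an annotated sequence. The 13 higher in nam8D had a median length of 326 bases, and the 63 lower had 94 bases, against 96 bases over all 154. T made up a median of 50.0% of bases 7 to 30 in the 13 higher introns, against 33.3% in the 63 lower ones and 37.5% over all 154. TTTTT, searched on the sense strand of bases 7 to 30, occurred in 6 of the 13 (46.2%) and in 11 of the 63 (17.5%), against 32 of 154 (20.8%). The 11 annotated ribosomal protein introns higher in nam8D did not share the high T, with a median of 33.3%. TTTTT occurred in 1 of these 11 (9.09%). Over all 88 annotated ribosomal protein introns the median T was 29.2%, and 6 (6.82%) had TTTTT.

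Ordered by that T share, the introns were cut into 3 parts. Introns tied at the cuts, at 33.3% and 45.8% T, were divided by listing order, so their part is arbitrary. In the 51 introns with the least T, 1 was higher and 27 were lower in nam8D, with a median of -0.47. In the middle 51 the counts were 4 and 22 (median -0.38), and in the 52 with the most T they were 8 and 14 (median -0.15). Length divided them further, since 22 introns over 200 bases had 9 higher and 6 lower (median 0.22) and 132 shorter ones had 4 higher and 57 lower (median -0.39). T share and length were not separated from each other or from read count. Single introns went against the split, since CQD1 rose without TTTTT in that window and PCC1 fell with it.

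Split by the 5' splice site, the medians lay closer together. GTATGT, compared with the first 6 bases, opened 124 of the 154 introns, and these had 10 higher and 50 lower with a median of -0.36. The 30 with another site had 3 higher and 13 lower with a median of -0.30. Among them the 10 introns with GTAAGT, including PCC1 and SNC1, had none higher and 6 lower (median -0.63), and the 6 with GTATGC, including YCL002C, had none higher and 4 lower (median -0.60). TACTAAC, the branch point consensus, searched on the sense strand of the whole intron, was found in 11 of the 13 higher introns (84.6%) and 45 of the 63 lower ones (71.4%), against 120 of 154 (77.9%).

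**Figure D4:**
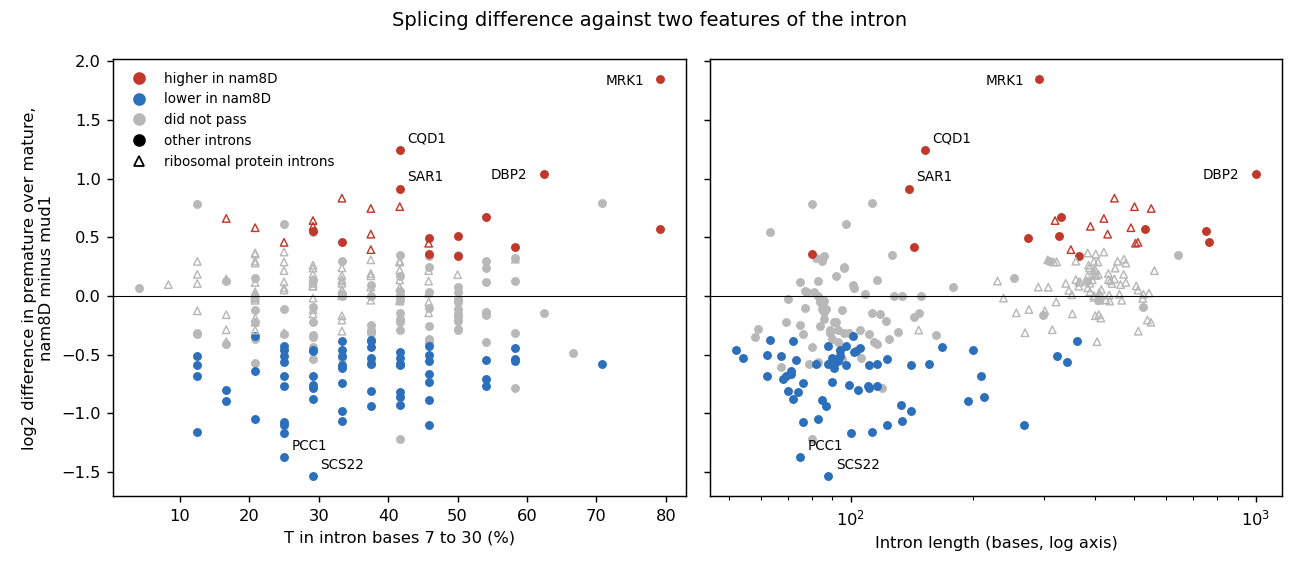
Log2 difference nam8D minus mud1 (y axis) of each annotated tested intron against the percentage of T in its bases 7 to 30 (left) and against its length in bases (right, log axis), with ribosomal protein introns as triangles and others as circles. MRK1, with 79.2% T, and DBP2, with 62.5% T, stand at the upper right of the left panel, and most introns lower in nam8D are short.

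Abundance, the sum of premature and mature counts of a target as counts per 1000000 counts of its library (CPM), passed the test at fewer introns than splicing did. It is relative to the other primed targets, so it gives no amount of RNA per cell. Of 278 targets, 11 were higher in nam8D (3.96%) and 4 lower (1.44%), MUD1 among the higher ones. MRK1 had 53.2, 67.4 and 46.9 CPM in nam8D, against 132, 83.6 and 81.7 CPM in mud1, with no overlap (log2 difference -0.83, SE 0.16, edgeR adjusted p = 0.0042). Its premature counts were 13.4, 18.4 and 14.7 CPM in nam8D, against 13.4, 8.25 and 7.23 CPM in mud1. Its mature counts were 39.8, 49.0 and 32.2 CPM in nam8D, against 119, 75.3 and 74.4 CPM in mud1, so the mature product was lower in every nam8D library. SAR1 had 1894, 1884 and 1815 CPM in nam8D, against 2391, 2491 and 2547 CPM in mud1, also apart (log2 difference -0.41, SE 0.06, edgeR adjusted p = 0.00019). The other lower targets were RPL27B and RPS19A, both at -0.20.

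On the higher side RCF3, a respiratory chain supercomplex factor gene, had 174, 176 and 172 CPM in nam8D, against 130, 125 and 137 CPM in mud1 (log2 difference 0.41, SE 0.08, edgeR adjusted p = 0.0042). Those groups did not overlap. USV1, a transcription factor gene of stress responses (0.51), ECM9 (0.48), PAL2 (0.37), UBC8 (0.34), the fimbrin gene SAC6 (0.33), NYV1 (0.32), MMS2 (0.23), HNT1 (0.23) and PFY1 (0.22) were the rest. Without mud1 replicate 2 only MUD1 and SAR1 were called, with MRK1 at -0.94 and RCF3 at 0.38. Without mud1 replicate 3 there were 3 higher and 2 lower, and without nam8D replicate 2 there were 6 and 3. With TMM factors in place of library totals the counts were 6 higher and 5 lower, and with mature counts alone 28 and 7.

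Most introns with a splicing call had no abundance call, but most abundance calls fell on introns with a splicing call. Where both calls were made, they had opposite directions. Of the 69 introns lower in premature share in nam8D, 8 were also more abundant and none less, and 53 had a positive abundance difference, with a median of 0.09. Of the 28 introns higher in premature share, none was more abundant and 3 were less (MRK1, SAR1 and RPS19A), and 9 had a positive difference, with a median of -0.08. Among the 177 introns with no splicing call 2 were more abundant and 1 less, 101 were positive, and the median was 0.01. Premature and mature counts enter both measures, so the 2 are not independent. SCS22 (-0.08), PCC1 (-0.11) and SNC1 (0.02), with some of the largest splicing differences, did not pass for abundance.

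The same mutants were also collected at 48 h, in stationary phase, as 3 libraries each, and these share no library with the log-phase comparison. At 48 h 22 introns were higher in nam8D (8.03%) and 35 lower (12.8%), in a fit of the 12 mutant libraries. Of the 28 introns higher in log phase, 22 had a positive difference at 48 h, against 98 of all 274, and 11 passed in that direction. Of the 69 lower in log phase, 61 had a negative difference at 48 h, against 176 of all 274, and 23 passed in that direction. Of these 97 introns, 0 passed at 48 h in the opposite direction. MRK1 was 23.8, 31.0 and 30.9% premature in nam8D at 48 h, against 7.93, 9.64 and 9.35% in mud1, a gap like that in log phase (log2 difference 2.02, SE 0.16, edgeR adjusted p = 1.1e-09). SCS22 was 50.5, 51.5 and 52.9% in nam8D at 48 h, against 67.2, 67.4 and 61.5% in mud1, again with nam8D below (log2 difference -0.82, SE 0.15, edgeR adjusted p = 0.00041).

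The difference itself changed between conditions at 16 introns, being more positive at 48 h at 10 (3.65%) and more negative at 6 (2.19%). These counts moved with single libraries, running between 4 (without nam8D replicate 2 in log phase) and 29 (without nam8D replicate 1 at 48 h) for the first and between 1 (without nam8D replicate 3 in log phase) and 10 (without nam8D replicate 2 at 48 h) for the second. DBP2 was 84.5, 84.3 and 83.8% premature in nam8D at 48 h, against 87.6, 84.9 and 80.6% in mud1, so the groups overlapped where they had been apart in log phase (change of the log2 difference -1.08, SE 0.23, edgeR adjusted p = 0.0069). SAR1 was 16.9, 18.5 and 16.9% in nam8D at 48 h, against 6.33, 5.63 and 6.08% in mud1, a wider gap than in log phase (change 0.80, edgeR adjusted p = 0.014). UBC8 was 13.9, 14.7 and 14.2% in nam8D at 48 h, against 16.5, 17.1 and 14.8% in mud1, a narrower gap than in log phase (change 0.89, edgeR adjusted p = 0.0069). The change at SAR1 did not pass without mud1 replicate 2 at 48 h (0.76) or without nam8D replicate 2 in log phase (0.72).

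**Figure D5:**
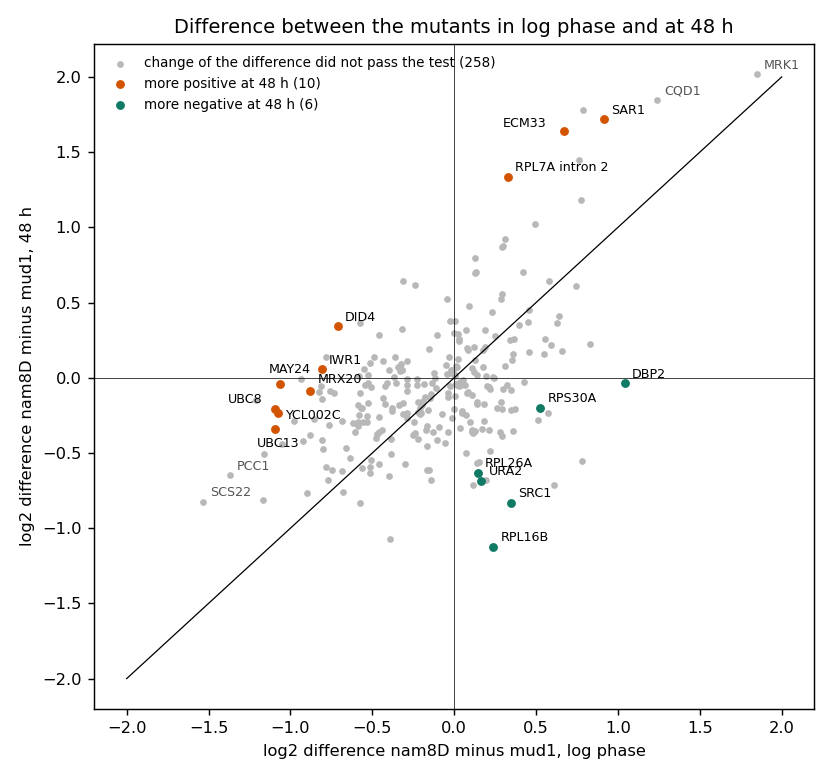
Log2 difference in premature over mature, nam8D minus mud1, of each of 274 introns in log phase (x axis) and at 48 h (y axis), from 12 libraries, with equality as a line. Introns whose difference changed by the interaction test are coloured, 10 more positive and 6 more negative at 48 h, and MRK1 lies at 1.84 in log phase and 2.02 at 48 h.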

How the data were processed

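MPE-seq libraries of Saccharomyces cerevisiae were compared as 3 nam8D against 3 mud1 log-phase libraries, grouped by genotype and growth labels. The authors deposited whole-number counts of mature and premature reads per intron and library, not normalized, as the values and, per the file headers, the column names show. Per the submitters' processing notes the build was R64, and the tools listed, without their roles, were STAR 2.7.2b, fastp 0.20.0 and FastQC. The sources used here tell neither how reads were assigned to products or gene copies nor if molecular identifiers were counted, so errors cover the spread between libraries only.

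Splicing was tested with edgeR 4.0.16 (R 4.3.3), with premature and mature counts as 2 columns per library, a term per library and a group term on the premature column, for introns listed in all 6 libraries with a mean of at least 20 counts. Abundance used the sum of both counts over the library total, with filterByExpr and no scaling factor, and an intron not listed in a library entered as 0. The comparison with 48 h used the 12 mutant libraries and an interaction term. Median shares were compared by exact permutation of libraries (20 splits, two-sided). Adjusted p-values follow Benjamini-Hochberg over all features of a comparison. Alternatives were DESeq2 1.42.0, limma 3.58.1 on log2 odds (pseudocount 0.5 or 5), centred libraries, other count minimums, other scaling, a replicate block, more libraries in the fit and each library left out. On simulated counts of 274 introns, 30 were changed 1.5-fold and 30 were changed 2-fold. The splicing fit recovered 73.3% and 93.3% of these, with 1 false call among 214 unchanged introns. The interaction fit recovered fewer, 36.7% of 1.5-fold and 83.3% of 2-fold changes, with 0 false calls. Sequences and coordinates came from the RefSeq R64 genome, where 242 of the 274 tested introns matched an annotated intron. Tables were handled in Python 3.11.15 with pandas 2.3.3 and numpy 2.4.6, and drawn with matplotlib 3.10.9.

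The rule for names took the 10 introns that rose most and the 10 that fell most among those that passed without overlap, a fixed set of genes, the 8 largest changes of abundance in each direction, and the 2 smallest p-values of each list. Introns named beyond it were chosen after their values were seen, and 1 item that the rule names is not reported here. The comparison, the members and the lists were chosen with earlier results of these data known. Replicates differed by far more than sampling noise (chi-square over degrees of freedom of 20.8 or more), so each counted as 1 library.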

Additional observations from a re-analysis of the deposited data

Results flagged for a closer look

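The difference between nam8D and mud1 in premature over mature was tested for a change between 48 h and log phase (edgeR quasi-likelihood, Benjamini-Hochberg adjusted p under 0.05), and 16 introns passed. The change, 48 h minus log phase on the log2 scale, was positive at ECM33 (0.97), YCL002C (0.84), IWR1 (0.87), UBC13 (0.75), UBC8 (0.89), MRX20 (0.79), RPL7A intron 2 (1.01), DID4 (1.05), SAR1 (0.80) and MAY24 (1.02). It was negative at URA2 (-0.85), RPS30A (-0.72), RPL26A (-0.77), SRC1 (-1.18), RPL16B (-1.36) and DBP2 (-1.08). Of the 10 positive ones, 7 had been lower in nam8D in log phase, so their negative difference became smaller or, at DID4 and IWR1, turned positive. Both ECM33 and SAR1 had been higher in nam8D in log phase and differed more at 48 h. The calls on UBC8, DBP2, YCL002C, DID4 and RPL7A intron 2 held in all settings run, and IWR1 lost its call only without nam8D replicate 2 in log phase (0.78). RPL16B, SRC1 and SAR1 each lost it in 2 settings, and the other 7 in 8 to 13.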

How the results depend on the processing

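Of the splicing counts, 28 higher and 69 lower in nam8D, centring each library on its median intron gave 114 and 29 (limma), and leaving out 1 library gave 18 to 41 and 48 to 72. Abundance counts, 11 higher and 4 lower, were 6 higher with TMM or RLE factors, 28 and 7 with mature counts alone, 2 and 2 in a fit of all 23 libraries, and 1 to 10 and 1 to 4 with 1 library left out. The counts of introns whose difference changed at 48 h, 10 more positive and 6 more negative, were 26 and 14 with all 23 libraries and 4 to 29 and 1 to 10 with 1 library left out, and centring gave 79 more negative. The causes were not tested. Across introns, same-numbered libraries deviated together only weakly or not at all (correlations -0.09, 0.13 and 0.12). That measure leaves out any shift common to all introns of a library, so it cannot settle whether replicate numbers mark pairs. Pooled premature shares of replicates 1, 2 and 3 were 2.14, 2.10 and 2.30% in nam8D and 2.17, 2.14 and 2.35% in mud1. Replicate 3 was the highest in both groups, and a shared replicate effect was not tested. With a replicate block the splicing counts were 36 and 88, the abundance counts 8 and 2, and the interaction counts 19 and 12. Introns that did not pass changed sign at SUS1 intron 2 (0.34 and 0.074 with the 2 centrings, -0.12 to 0.079 with 1 library left out), RPL22B (0.33 and 0.068, -0.26 to 0.19), YOS1 intron 1 (-0.030 to 0.14) and HAC1 (-0.37 to 0.47). Of the values of single features under an alternative, 1061 kept direction and side of the threshold and 181 lost the call, while 12 gained one and 10 changed sign. Of the 97 introns called, 2 changed sign, DYN2 (0.02) and SRB2 (0.03), both after centring on the median intron.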

Other observations

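Some introns separated the mutants at 48 h more than in log phase without a call for the change. PCH2, a checkpoint ATPase gene of meiosis, was 87.4, 96.9 and 89.7% premature in nam8D at 48 h, against 75.7, 78.0 and 74.4% in mud1, with no overlap (log2 difference 1.78, SE 0.42, edgeR adjusted p = 0.0039). Its change from log phase was 0.99 (edgeR adjusted p = 0.61). RPS9A was 5.93, 8.32 and 8.42% in nam8D at 48 h, against 2.83, 2.98 and 2.81% in mud1, all nam8D libraries being higher (log2 difference 1.45, SE 0.16, edgeR adjusted p = 3.5e-07). The CQD1 intron was 46.6, 57.4 and 60.3% in nam8D at 48 h, against 22.8, 25.4 and 27.2% in mud1, again apart (log2 difference 1.85, SE 0.19, edgeR adjusted p = 1.5e-07). Its change of 0.61 did not pass (edgeR adjusted p = 0.20).

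The introns of HMRA1, a silent mating-type cassette gene, were both lower in nam8D in log phase, at -0.53 and -0.46. Reads from the active mating-type locus cannot be told apart from reads of this cassette in the counts. The second of these calls did not hold without nam8D replicate 2 (-0.42).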
